A study of Homo sapiens with 3 samples.

Results

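The keratin genes were followed in PANC-1, a cell line from a human pancreatic ductal carcinoma, after treatment with cantharidin (CAN) or okadaic acid (OA). All genes whose symbol is KRT with a number and at most 1 further letter were taken, and the keratin-associated protein genes were left out. RefSeq lists 68 such symbols, of which 54 had a matched probe, out of 19699 genes named on the arrays. The 54 were measured with 60 probes. No probe was matched for KRT34, KRT86 and 12 keratin pseudogenes, which were not analysed here.

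Total RNA of 3 samples was labelled with Cy3 and hybridised to 1 Agilent array each. The groups were untreated control cells, cells treated with 20 µM CAN for 24 h, and cells treated with OA for 24 h, also labelled as 20 µM. The treatment protocol can also be read as giving that dose for CAN alone. Both agents are inhibitors of PP2A, a serine/threonine phosphatase with many substrates, and the study used OA as a reference inhibitor beside CAN. Whether the control cells received a solvent is not given in the sources used here. With 1 array per group there was no replicate and no test across arrays, so the values below describe these 3 arrays. All cells were of 1 line grown in culture, and less RNA per cell and fewer cells carrying it cannot be told apart.

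Keratins are the intermediate filament proteins of epithelial cells. A filament is built from pairs of an acidic type I keratin and a basic or neutral type II keratin, and the pairs follow the tissue. KRT8 and KRT18 are the pair of simple epithelia such as the pancreatic duct, with KRT7 and KRT19 added in ductal cells. KRT5 and KRT14 mark the basal layer of stratified epithelia, KRT1 and KRT10 the suprabasal epidermis, KRT6 and KRT16 wounded or stressed epidermis, and a further set builds the hair shaft and its root sheath. Most type II genes lie in a cluster on chromosome 12 and most type I genes in a cluster on chromosome 17. KRT18 is the type I gene that sits in the type II cluster, next to KRT8. Keratin filaments are substrates of several kinases and phosphatases.

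Of the 54 keratins, 39 gave a signal well above background on at least 1 array and 31 did so on all 3. That is 72.2% of the keratins on any array, beside 85.1% of all genes. All 7 keratins of simple epithelia were above background on every array. KRT2, KRT6C, KRT12, KRT14, KRT17 and KRT77 of stratified epithelia, the hair and follicle keratins KRT25, KRT27, KRT36, KRT38, KRT40, KRT71, KRT72 and KRT75, and KRT222, which is on neither the stratified nor the hair list, were above background on none. As a check of epithelial genes in the control culture, EPCAM, CDH1, KRT7, KRT8, KRT18 and KRT19 were read, and all 6 were above background there. KRT7, KRT8, KRT18 and KRT19 are keratins followed here, so the check is not independent of the keratin values. Of 8 genes typical of blood cells, endothelium, islets and acini, 6 (PTPRC, CD3E, CDH5, INS, GCG and PRSS1) were also above background on every array, with intensities of 110 to 792 on the control array. PECAM1 and CPA1 were not. Calls above background were thus also made for genes of other tissues, and their part in the calls for keratins of skin and hair was not tested.

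Signals are given as the processed intensity of each array, and folds are computed after division by the array's 75th percentile, which was 784 for control, 713 for CAN and 936 for OA. A gene was called higher or lower at 1.5-fold, the threshold used in the study. Where a gene was not above background on 1 array of a comparison, the fold is a bound ("at least"), with the dim signal set to no less than the lowest intensity of any probe above background, 35.0 for control, 21.9 for CAN and 58.0 for OA. Probes printed 10 times on each array give the spread of the spotting and scanning. Below an intensity of 100 the median SD of the spots of a probe was 0.28 to 0.30 log2 units. From 100 to 1000 it was 0.07 to 0.09, and above 1000 it was 0.05 to 0.07. This spread leaves out the difference between cultures.

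Under CAN, 10 of 38 keratins compared were higher than in control, while 26.3% of all genes were, and 8 were lower, beside 34.0% of all genes. Under OA, 11 of 34 (32.4%) were higher, beside 28.0% of all genes, and 5 were lower, beside 27.0%. The median log2 difference of the keratins was -0.13 under CAN and 0.03 under OA, beside -0.17 and 0.02 for all genes. At 1.5-fold the keratins as a family therefore lay near the rest of the genes in the share that rose. In the share that fell they lay below it, with 21.1% under CAN and 14.7% under OA. The members moved in both directions. No fold is given for KRT24, KRT79 and KRT82 under CAN and for KRT5 under OA, since the bound pointed the other way. KRT24, KRT79 and KRT82 were above background on the CAN array alone, at 29.8, 32.2 and 30.9, with 27.7, 36.6 and 29.3 on the control array and 28.4, 18.6 and 37.9 on the OA array. With scaling to the median in place of the 75th percentile the OA counts were 10 higher and 9 lower, beside 24.6% and 30.3% of all genes, and with no scaling they were 13 and 3, beside 36.5% and 20.8%. The CAN counts without scaling were 9 higher and 15 lower, beside 23.6% and 39.0% of all genes in that setting. Both comparisons use the same control array.

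**Figure D1:**
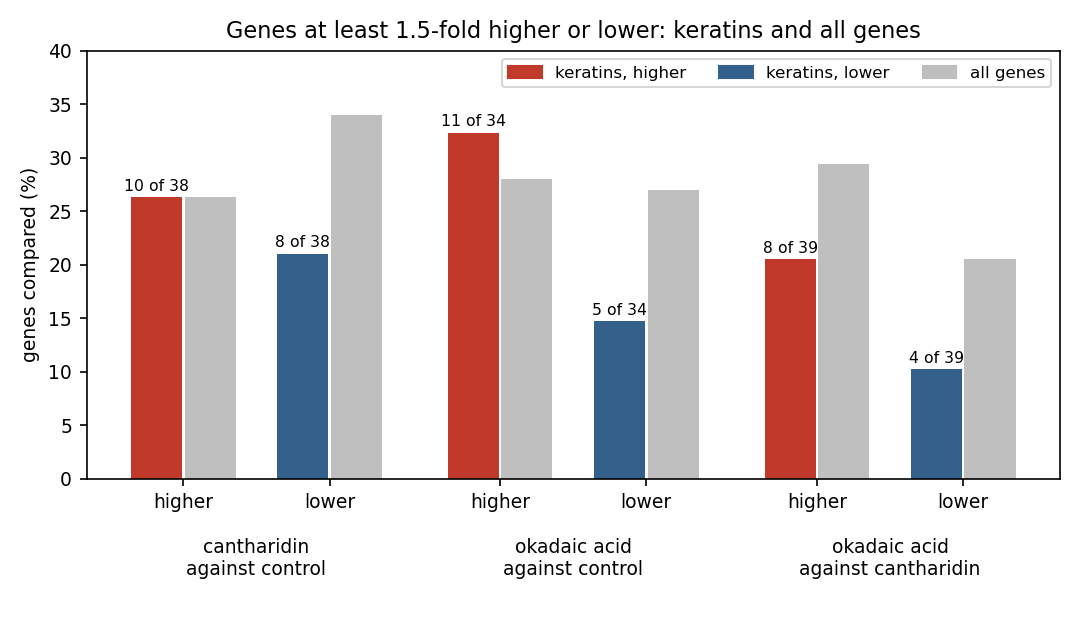
Share of genes compared (%) that were at least 1.5-fold higher or lower in each of 3 comparisons of single arrays, for keratins (coloured bars, with counts) and for all genes (grey bars). The keratin bar for higher under CAN is level with that of all genes (26.3%), and the keratin bars for lower stand below the grey bars in all 3 comparisons.

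**Figure D2:**
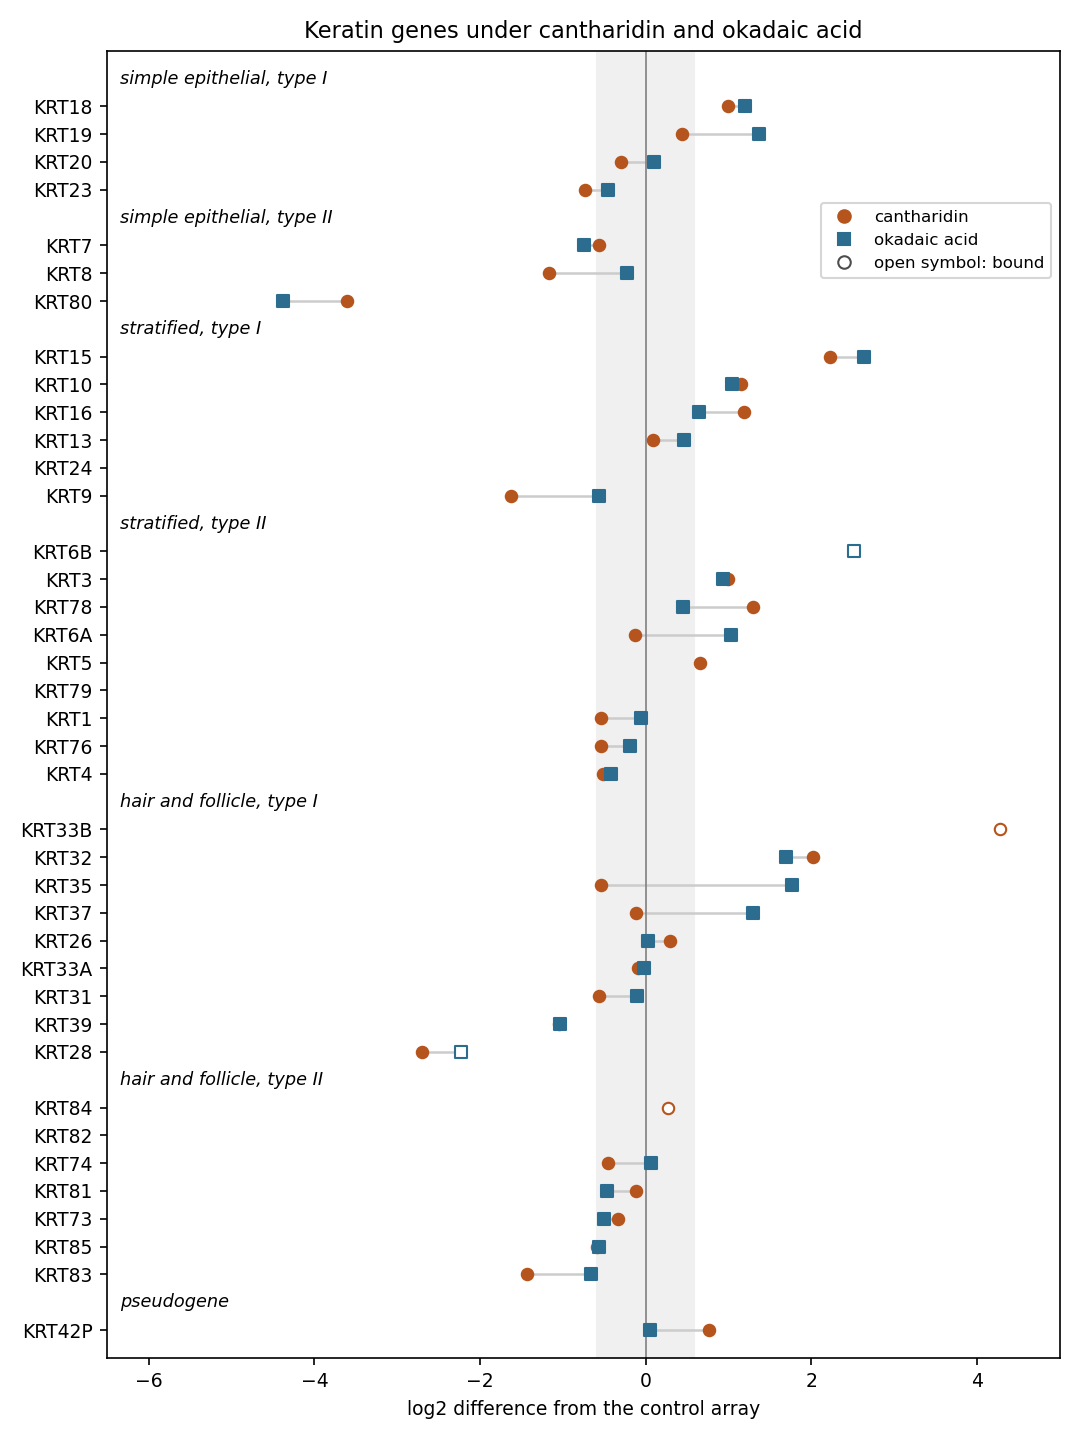
Log2 difference of each keratin from the control array under CAN (circles) and OA (squares), by class. Open symbols are bounds, the grey band spans 1.5-fold, and KRT24, KRT79 and KRT82 have no value. KRT80 lies farthest to the left, and KRT33B and KRT15 lie far to the right.

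Among the simple epithelial keratins, KRT18 was higher and KRT80 lower under both agents, KRT8 and KRT23 were lower under CAN, and under OA KRT19 was higher and KRT7 lower. Under CAN 1 of 4 type I members was higher and 1 lower, beside 26.3% and 34.0% of all genes. Under OA 2 of 4 were higher and none lower, beside 28.0% and 27.0%. KRT18 gave 70664 in control, 127870 under CAN and 193320 under OA, which is 1.99-fold higher under CAN and 2.29-fold higher under OA. A second KRT18 probe gave 2.50-fold and 2.78-fold higher. KRT8, the partner of KRT18, gave 51898, 20992 and 53027, which is 2.25-fold lower under CAN and 1.17-fold lower under OA. Its second probe was 2.76-fold lower under CAN and 2.12-fold lower under OA, so that the KRT8 probes fell on the same side under CAN and on different sides of the threshold under OA.

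KRT19, the keratin without a tail domain that marks ductal cells, gave 2503 in control, 3094 under CAN and 7746 under OA. It was 2.59-fold higher under OA and 1.36-fold higher under CAN. KRT7, the type II keratin of ducts, gave 19966, 12276 and 14239, which is 1.48-fold lower under CAN and 1.67-fold lower under OA. KRT7 crossed the threshold under OA alone, by a margin that the lack of scaling removed (log2 -0.49). Without scaling KRT7 was called lower under CAN instead (log2 -0.70). Between the agents KRT7 differed by 1.13-fold. The keratin with the largest fall was KRT80, a type II keratin found in many epithelia near cell junctions. Its signal was 3792 in control, 284 under CAN and 218 under OA, which is 12.1-fold lower under CAN and 20.8-fold lower under OA. KRT23 fell 1.66-fold under CAN (741 to 405), and its second, dimmer probe was 1.17-fold lower. KRT20, the keratin of intestinal and urothelial surface cells, was 1.23-fold lower under CAN and 1.08-fold higher under OA.

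**Figure D3:**
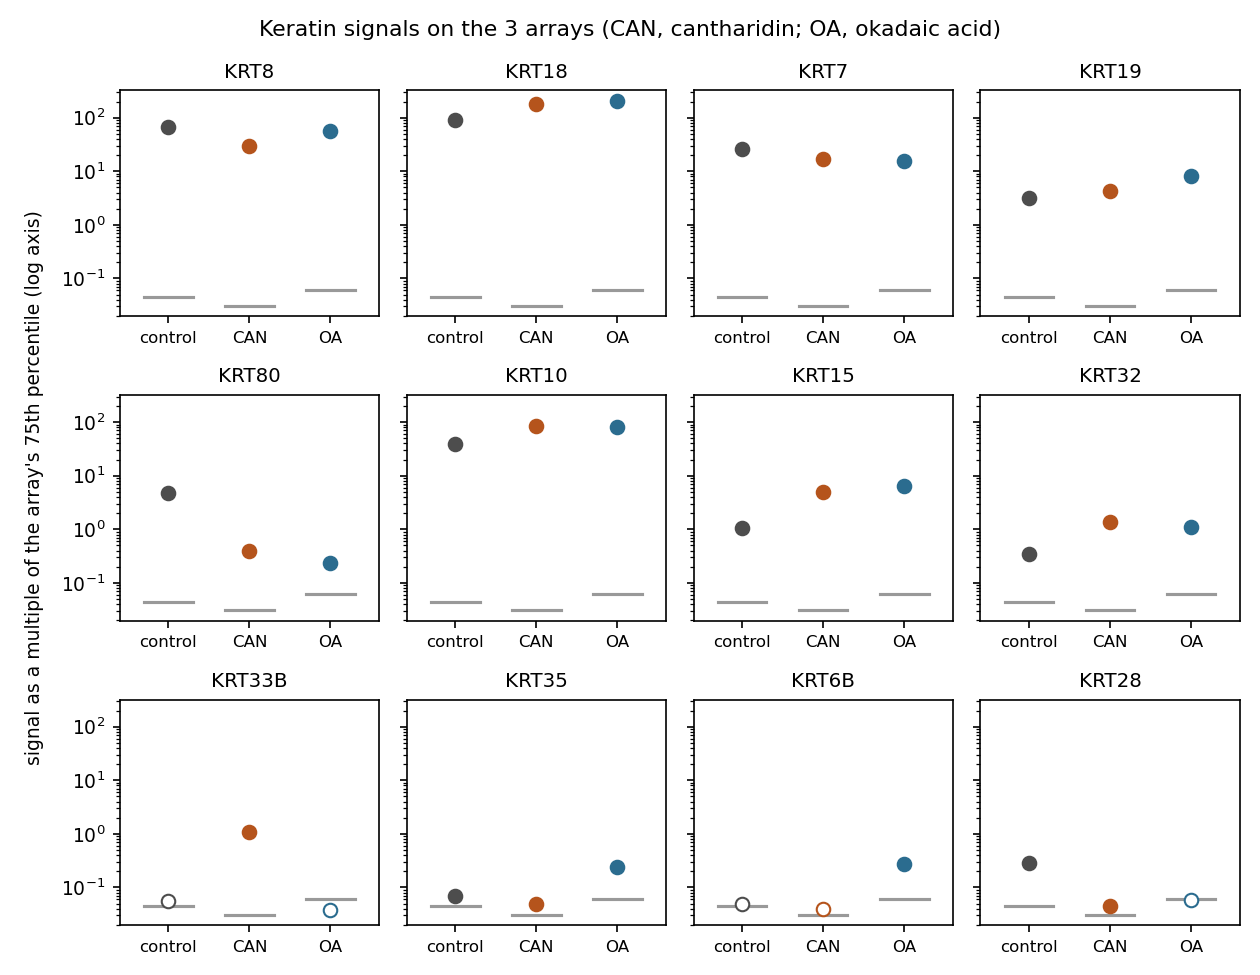
Signal of 12 keratins on the control, CAN and OA arrays as a multiple of the array's 75th percentile (log axis). Open circles were not above background, and grey bars mark the lowest signal above background on each array. KRT80 drops on both treated arrays, KRT15 and KRT32 rise on both, KRT33B is high on the CAN array alone, and KRT35 and KRT6B are highest on the OA array.

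Keratins of stratified epithelia that were called moved up, apart from KRT9. Under CAN 3 of 6 type I members compared were higher and 1 lower, beside 26.3% and 34.0% of all genes. Under OA 3 of 5 were higher and none lower, beside 28.0% and 27.0%. KRT15, a keratin of basal cells and of the hair follicle bulge, rose most among keratins measured on every array. It gave 819 in control, 3468 under CAN and 6071 under OA, which is 4.66-fold higher under CAN and 6.21-fold higher under OA. KRT10, the type I keratin of suprabasal epidermis, gave 30367, 61271 and 74498, a rise of 2.22-fold and 2.06-fold. KRT16, which is induced in wounded epidermis, was dim, with 64.3 in control, 134 under CAN and 120 under OA. Its rise was 2.29-fold and 1.56-fold. The CAN call was lost with normexp correction (log2 0.51, against 1.19), and the OA call was lost under 3 of 10 alternatives. KRT16 has 1 probe, above background on every array, so changes of filter, dim signals or probe summary cannot alter its calls. KRT9, the keratin of palms and soles, gave 274, 80.7 and 222, which is 3.09-fold lower under CAN and 1.48-fold lower under OA. With normexp correction its CAN difference was -1.02 log2 units, against -1.63. KRT13 of mucosal epithelia was 1.07-fold higher under CAN and 1.37-fold higher under OA.

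The type II keratins of stratified epithelia held no member that was lower by 1.5-fold, with 3 of 8 higher under each agent. Of all genes, 26.3% were higher and 34.0% lower under CAN, and 28.0% and 27.0% under OA. KRT3, the corneal type II keratin, gave 235 in control, 426 under CAN and 535 under OA, or 1.99-fold and 1.90-fold higher. KRT78 was 2.46-fold higher under CAN (166 to 370) and 1.36-fold higher under OA (270). KRT5, the basal type II keratin, was near the background, with 39.7 in control and 56.8 under CAN. That is 1.57-fold higher, a call lost with normexp correction and without scaling, and the 49.8 on the OA array was not above background. KRT6A and KRT6B, the type II keratins of wounded epidermis, were higher under OA. KRT6A gave 98.1 in control, 81.6 under CAN and 239 under OA, which is 2.04-fold higher under OA and 1.09-fold lower under CAN. KRT6B was above background on the OA array alone, at 257, and was at least 5.70-fold higher there than in control, or 1.24 log2 units with normexp correction, against 2.51. KRT6C, which lies between these genes on chromosome 12, was above background on no array. The KRT6 genes are nearly identical in sequence and the probe sequences were not used here, so their signals may share transcripts. KRT1, KRT4 and KRT76 were between 1.43-fold and 1.46-fold lower under CAN and between 1.04-fold and 1.33-fold lower under OA. Without scaling all of these were called lower under CAN (log2 -0.68, -0.66 and -0.68). KRT1 was also called lower under CAN with the deposited table (-0.62).

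Hair and follicle type I keratins gave some of the largest changes in both directions. Under CAN 2 of 9 were higher and 2 lower, beside 26.3% and 34.0% of all genes. Under OA 3 of 8 were higher and 2 lower, beside 28.0% and 27.0%. KRT32, a keratin of the hair cuticle, gave 270 in control, 995 under CAN and 1046 under OA. It was 4.06-fold higher under CAN and 3.25-fold higher under OA. KRT33B, a keratin of the hair cortex, was above background on the CAN array alone, at 781, and was at least 19.3-fold higher than in control, where the spot read 44.5. The OA spot read 35.5. The CAN difference of KRT33B was 4.27 log2 units as a bound and 2.98 with normexp correction. The closely related neighbouring gene KRT33A gave 142, 121 and 168, with folds of 1.06 and 1.01. The KRT33B value rests on 1 spot per array, as do the values of all keratins above background except KRT37.

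KRT35, a keratin of the hair matrix and cuticle, gave 55.1 in control, 34.3 under CAN and 224 under OA, which is 3.40-fold higher under OA and 1.46-fold lower under CAN. KRT37, a keratin of vellus hair, gave 69.1, 57.8 and 203, or 2.46-fold higher under OA and 1.09-fold lower under CAN. This gene has 10 spots on each array, which read 50.5 to 105 in control, 49.2 to 65.1 under CAN and 176 to 222 under OA. The OA spots of KRT37 did not overlap those of the other arrays in these unscaled intensities. They are repeat spots of 1 probe on single arrays. How often other probes with 10 spots show such a gap was not computed. KRT28, a keratin of the inner root sheath, gave 229 in control and 31.9 under CAN, 6.51-fold lower, and was not above background under OA (54.0), at least 4.70-fold lower. KRT39 gave 607, 266 and 355, which is 2.07-fold and 2.04-fold lower. With normexp correction of the background the change of KRT28 was -1.15 log2 units under CAN and -1.07 under OA, against -2.70 and -2.23, and the OA values of KRT35 and KRT37 were 0.77 and 0.65, against 1.77 and 1.30. The root sheath keratin KRT26 gave 121, 135 and 147, which is 1.23-fold and 1.02-fold higher. The hair cortex keratin KRT31 gave 505, 310 and 558, which is 1.48-fold and 1.08-fold lower.

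No type II keratin of hair and follicle was called higher than in control, beside 26.3% of all genes under CAN and 28.0% under OA. Of 7 compared under CAN 2 were lower, and of 5 under OA 1 was, beside 34.0% and 27.0% of all genes. KRT83, a hair cortex keratin, gave 2549 in control, 855 under CAN and 1927 under OA, which is 2.71-fold lower under CAN and 1.58-fold lower under OA. The OA call of KRT83 was lost without scaling and with scaling to probes above background on all arrays. A second, dimmer KRT83 probe was at least 3.12-fold and at least 1.55-fold lower. KRT85, a keratin of the hair matrix, gave 1569, 945 and 1268. It lay at the threshold, 1.51-fold lower under CAN and 1.48-fold lower under OA, and its CAN call was lost under 5 of 10 alternatives. Changes of filter, dim signals or probe summary, counted among the 10, cannot alter a gene with 1 probe above background on every array. KRT81, another keratin of the hair cortex, gave 37356, 31377 and 32316, with folds of 1.08 and 1.38 lower. The root sheath keratin KRT73 gave 4900, 3521 and 4140, which is 1.26-fold and 1.41-fold lower. KRT74, also of the root sheath, gave 113, 75.4 and 141, or 1.37-fold lower under CAN and 1.04-fold higher under OA. KRT84 was above background on the CAN array alone, at 47.5, against 43.4 in control, and was higher by at least 0.27 log2 units, a bound that does not place it on either side of the threshold. KRT81, KRT83 and KRT86 are close relatives, and KRT86 had no matched probe. The pseudogene KRT42P was 1.70-fold higher under CAN on its brighter probe (102 to 158) and 1.36-fold lower on the other.

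Partners of a filament pair were set side by side, as differences from control and not as levels. The change of KRT18 exceeded that of KRT8 by 4.47-fold under CAN and 2.68-fold under OA. The change of KRT10 exceeded that of its partner KRT1 by 3.22-fold and 2.14-fold, and that of KRT13 exceeded KRT4 by 1.53-fold and 1.83-fold. KRT16 changed 2.50-fold more than KRT6A under CAN and 1.31-fold less under OA. Of these genes KRT1, KRT4 and KRT13 under both agents, KRT8 under OA and KRT6A under CAN were themselves within 1.5-fold of control. The type I member thus had the higher difference in each of these pairs under CAN and in each but KRT6A with KRT16 under OA. Over all members, 6 of 19 type I keratins were higher and 4 lower under CAN, beside 3 and 4 of 18 type II keratins and 26.3% and 34.0% of all genes. Under OA the type I counts were 8 higher and 2 lower of 17, and the type II counts 3 and 3 of 16, beside 28.0% and 27.0% of all genes. The pairs KRT5 with KRT14 and KRT3 with KRT12 had no such value, as KRT14 and KRT12 were not above background. In these pairs the type II member was called higher, KRT5 1.57-fold under CAN and KRT3 1.99-fold under CAN and 1.90-fold under OA. KRT6B, at least 5.70-fold higher under OA, was not set beside KRT16. The pattern of the type I members thus covers only the pairs compared.

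**Figure D4:**
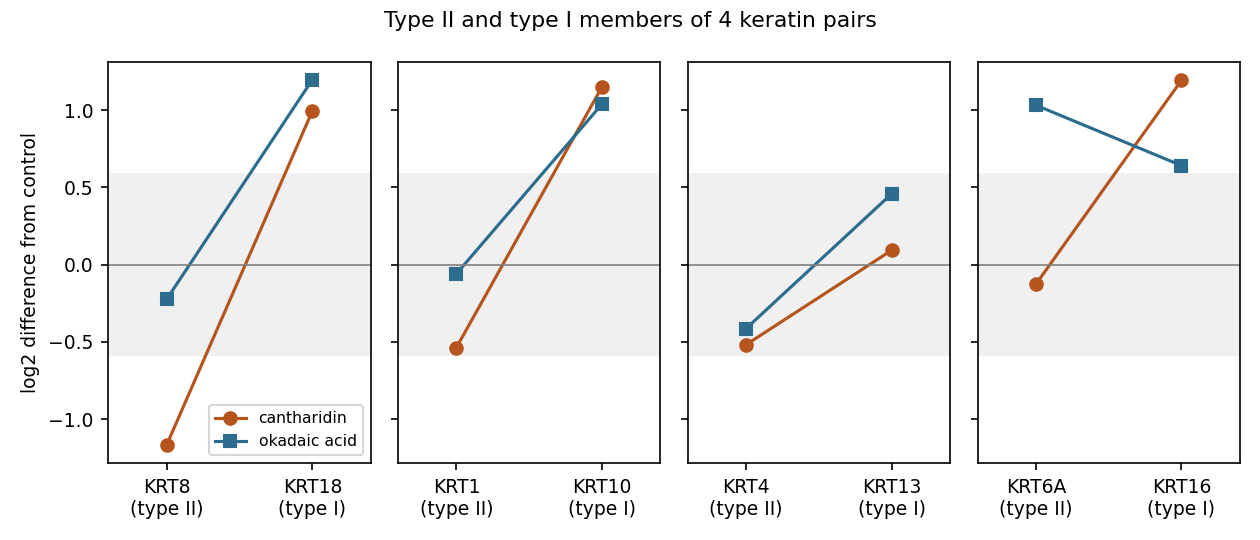
Log2 difference from control of the type II (left) and type I (right) member of 4 keratin pairs under CAN (circles) and OA (squares), with the grey band at 1.5-fold. Lines join members of a pair. The type I member is higher in each pair under CAN, by 2.16 log2 units for KRT18 over KRT8, and KRT6A with KRT16 turns under OA.

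The arrays of the agents, both labelled as 20 µM, were also compared directly. Of 39 keratins compared, 8 were higher under OA than under CAN, beside 29.4% of all genes, and 4 were lower, beside 20.5% of all genes. With no scaling the counts were 17 and 1, beside 46.1% and 12.3% of all genes in that setting. KRT6B was at least 6.84-fold higher under OA, KRT35 4.96-fold, KRT37 2.67-fold, KRT6A 2.23-fold, KRT9 2.09-fold, KRT8 1.92-fold, KRT19 1.91-fold and KRT83 1.72-fold. KRT33B was at least 17.7-fold lower under OA, and KRT78, KRT80 and KRT42P were 1.80-fold, 1.71-fold and 1.65-fold lower. The calls of KRT78, KRT80 and KRT42P were lost without scaling, and those of KRT80, KRT42P and KRT9 with normexp correction. That correction also gave smaller log2 differences for KRT6B (1.25, against 2.77), KRT35 (1.05, against 2.31), KRT37 (0.70, against 1.42) and KRT33B (-2.90, against -4.14). For KRT3, KRT10, KRT15, KRT16, KRT18 and KRT32, which were called higher under each agent, the direct difference was between 1.05-fold and 1.47-fold, the latter for KRT16. With single arrays, no interval can be given for these differences.

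Promoters are shown for some keratins that rose under an agent and for KRT33A. They come from RefSeq on GRCh38.p14, as the 250 bases before the start of the gene, all on the minus strand. Promoters of keratins that fell, such as KRT28, KRT9 and KRT39, were listed and are not shown. KRT80, KRT15, KRT6B, KRT18 and KRT19 had no listed promoter. KRT10 (chr17:40822615-40822864) and KRT32 (chr17:41467387-41467636) rose under both agents, KRT33B (chr17:41369814-41370063) rose under CAN while its neighbour KRT33A (chr17:41350829-41351078) did not, and KRT35 (chr17:41481152-41481401) rose under OA. Capitals mark the letters TATAAA and CCAAT on either strand.
KRT10: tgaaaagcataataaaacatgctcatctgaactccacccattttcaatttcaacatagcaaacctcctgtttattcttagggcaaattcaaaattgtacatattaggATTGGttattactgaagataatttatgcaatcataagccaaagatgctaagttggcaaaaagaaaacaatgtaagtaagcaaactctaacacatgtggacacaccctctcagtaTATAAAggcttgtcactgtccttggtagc
KRT32: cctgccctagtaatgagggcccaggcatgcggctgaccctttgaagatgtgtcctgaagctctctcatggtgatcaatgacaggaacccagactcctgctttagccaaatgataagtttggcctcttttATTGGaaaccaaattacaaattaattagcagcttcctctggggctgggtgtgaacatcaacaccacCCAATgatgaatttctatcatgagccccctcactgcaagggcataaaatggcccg
KRT33B: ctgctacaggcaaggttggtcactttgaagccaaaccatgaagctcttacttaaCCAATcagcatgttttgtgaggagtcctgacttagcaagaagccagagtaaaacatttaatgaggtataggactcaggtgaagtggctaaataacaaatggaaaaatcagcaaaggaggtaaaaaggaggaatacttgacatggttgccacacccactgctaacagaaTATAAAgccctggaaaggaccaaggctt
KRT33A: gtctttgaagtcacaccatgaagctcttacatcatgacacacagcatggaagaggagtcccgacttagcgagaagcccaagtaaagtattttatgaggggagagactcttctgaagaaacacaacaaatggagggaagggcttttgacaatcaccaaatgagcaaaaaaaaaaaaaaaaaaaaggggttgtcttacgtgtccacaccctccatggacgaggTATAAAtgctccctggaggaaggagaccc
KRT35: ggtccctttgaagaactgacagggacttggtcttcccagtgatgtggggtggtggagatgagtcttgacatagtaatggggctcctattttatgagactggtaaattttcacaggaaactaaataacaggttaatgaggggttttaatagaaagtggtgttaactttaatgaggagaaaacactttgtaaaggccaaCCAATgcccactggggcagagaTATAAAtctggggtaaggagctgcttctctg

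A promoter was listed for 33 of the keratins with a probe. The letters TATAAA were found in 57.6% of these 33 and in 11.1% of the 27305 genes with a listed promoter, and CCAAT in 48.5% and 33.0%. The GC box letters GGGCGG were found in 12.1% and 42.3%. The AP-1 letters TGANTCA were in none of the 33 keratin promoters and in 6.60% of all promoters. Both strands were read for each motif, and no keratin promoter had different motifs that shared a base. KRT10, KRT33A, KRT33B and KRT35 held TATAAA, and KRT32 held CCAAT at 2 places. Of the keratins lower under CAN, KRT28 and KRT39 held both TATAAA and CCAAT, KRT85 held CCAAT alone, and KRT8 and KRT9 held neither. KRT33A with TATAAA and no CCAAT, and KRT33B with both, are neighbours with different CAN values. Of the keratins with a listed promoter, TATAAA was in 3 of 5 higher and 2 of 5 lower under CAN, and in 4 of 5 higher and 2 of 2 lower under OA. These matches describe the letters of the promoters.

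Keratin filaments are anchored at desmosomes, and desmosome and linker genes were more often lower than higher. Of 15 compared, 1 was higher and 9 lower under CAN, beside 26.3% and 34.0% of all genes. Under OA 2 were higher and 7 lower, beside 28.0% and 27.0% of all genes. PPL, which codes for periplakin, a linker between keratins and the cell envelope, gave 4132 in control, 538 under CAN and 911 under OA, or 6.98-fold and 5.41-fold lower. EVPL, which codes for its partner envoplakin, was 3.67-fold and 4.10-fold lower. PERP, a desmosomal membrane protein gene, was 3.05-fold and 3.82-fold lower. DSP, which codes for desmoplakin, the plaque protein that binds keratins, was 1.30-fold lower under CAN and 3.66-fold higher under OA (1174, 819 and 5131). The list medians were -0.95 under CAN and -0.47 under OA on the log2 scale, beside -0.17 and 0.02 for all genes.

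The cornified envelope is the protein shell of terminal keratinocytes. Of 13 of its genes compared under CAN 5 were higher and 2 lower, beside 26.3% and 34.0% of all genes. Of 12 under OA 5 were higher and 2 lower, beside 28.0% and 27.0% of all genes. Both counts of higher genes, and the medians, include SBSN, which was named after its values were seen. The medians were 0.12 and 0.22 log2 units, beside -0.17 and 0.02 for all genes. SPRR2A, a small proline-rich envelope protein gene, gave 268, 4998 and 879, which is 20.5-fold higher under CAN and 2.75-fold higher under OA. SPRR3 was 3.64-fold and 1.84-fold higher, CNFN was 3.75-fold and 2.84-fold lower, and SPRR1A was 1.33-fold and 1.62-fold lower. SBSN, which codes for suprabasin of suprabasal keratinocytes and was named after its values were seen, was not above background in control (15.5). It gave 4375 under CAN, at least 138-fold higher, and 56663 under OA, at least 1356-fold higher. CSTA and TGM1 were also not above background in control. CSTA was at least 20.25-fold higher under CAN and at least 6.10-fold higher under OA, and TGM1 at least 2.94-fold and at least 9.24-fold. The classical envelope gene IVL was above background on no array.

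Of 14 other intermediate filament genes compared under CAN 2 were higher and 5 lower, beside 26.3% and 34.0% of all genes, and of 13 under OA 3 were higher and 6 lower, beside 28.0% and 27.0%. The share lower under CAN was near that of all genes. The medians were -0.09 under CAN and -0.45 under OA. LMNB1, the gene of lamin B1 in the nuclear lamina, gave 2466, 182 and 1079, or 12.3-fold and 2.73-fold lower. PRPH, the gene of the neuronal filament protein peripherin, was 5.10-fold and 1.65-fold higher. SYNM, which codes for synemin, was 1.85-fold lower under CAN and 3.45-fold higher under OA, and NES, which codes for nestin, was 3.06-fold and 1.56-fold lower. Of the epithelial genes used as a check, EPCAM was 3.42-fold lower under CAN and 2.20-fold lower under OA. CDH1, which codes for E-cadherin, was above background in control alone (167) and was at least 6.34-fold lower under CAN and at least 3.43-fold lower under OA. EPCAM and CDH1 were thus lower on both treated arrays. By the probes used, KRT8 was called lower under CAN alone and KRT7 under OA alone, the latter under CAN instead without scaling. KRT18 was higher on both arrays, and KRT19 was called higher under OA alone. Of the 6 check genes, 1 was higher and 3 lower under CAN, beside 26.3% and 34.0% of all genes. Under OA 2 were higher and 3 lower, beside 28.0% and 27.0%. Any link of EPCAM and CDH1 to the keratin values was not tested. Of the genes of other tissues, GCG and PRSS1 were 2.84-fold and 2.49-fold higher under CAN.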

How the data were processed

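Gene expression was measured on 3 Agilent 1-colour arrays, 1 each for control, CAN and OA cells, grouped by sample title. The deposited spot intensity was the processed signal of Feature Extraction 11.0.1.1 (hg19 annotation), which per the file headers subtracts background and detrends position inside an array and leaves arrays unscaled. Flags for outlier spots and for signal above background were used. A table of normalized log2 values deposited by the authors, whose making is not stated, served as an alternative. All arrays were on 1 slide and in 1 scan.

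Spots without outlier flags were averaged on the log2 scale (34041 probes), and each array's 75th percentile was subtracted. RefSeq accessions without version named 25705 probes and 19699 genes through the GRCh38.p14 tables, used for names alone. A gene was represented by its brightest probe (highest mean log2 over the arrays), was compared when either array was above background, and was called at 1.5-fold. Dim signals were floored, as described above. No pseudocount and no test was used. Background percentages count all genes compared, those without a fold included. The counting was tested on simulated data, with changes well above 1.5-fold planted in brighter genes. That run does not test the calls of dim genes or of changes near 1.5-fold.

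Every keratin above background on an array was named with values. From each further list at most 4 genes were named, those with the largest change under either agent among genes measured on the arrays compared. SBSN, CSTA, TGM1 and IVL were named beyond this rule. The members, lists and alternatives were chosen with earlier results of these data known. Alternatives were the normexp correction (offset 50, on median spot intensity), scaling to the median, to the 75th percentile of probes above background on all arrays or by quantiles, no scaling, no filter, signal above background on all 3 arrays, dim signals as measured, the deposited table, a 2-fold threshold and the median over a gene's probes. Software was Python 3.11.15 (pandas 2.3.3, numpy 2.4.6, matplotlib 3.10.9) and limma 3.58.1 in R 4.3.3. Precision is limited by there being 1 array per group.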

Additional observations from a re-analysis of the deposited data

Results flagged for a closer look

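KRT35, KRT37 and KRT6A were above background on every array and had opposite signs against control under the agents, with a direct difference past 1.5-fold. OA minus CAN was 2.31 log2 units for KRT35 (-0.54 under CAN and 1.77 under OA), 1.42 for KRT37 (-0.12 and 1.30) and 1.16 for KRT6A (-0.13 and 1.03). With 1 array per group the difference between the agents was not tested. The signals on the control and CAN arrays were under an intensity of 100 for these genes. Replicate spots there had a median SD of 0.28 to 0.30 log2 units. The CAN values of KRT37 and KRT6A were smaller than that SD, which is for single spots and not for a difference of arrays. KRT37 is a mean of 10 spots per array, and the SD of its own spots was 0.30 in control and 0.15 under CAN. The direct difference ranged over the alternatives from 1.05 to 2.70 for KRT35, from 0.70 to 1.81 for KRT37 and from 0.66 to 1.55 for KRT6A.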

How the results depend on the processing

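Of 88 recomputed counts and medians, 68 stayed near the value given above (counts within 1.5 times, medians within the spread of replicate spots). The medians at the 2-fold threshold cannot change with the threshold, and they are counted among the 68. At 2-fold, 6 of 38 keratins were higher under CAN, beside 18.8% of all genes, and 3 of 34 lower under OA, beside 17.4%. At that threshold 9 of 34 were higher under OA, beside 18.3%, and 6 of 38 lower under CAN, beside 21.6%. Between the agents 5 of 39 were higher and 1 lower under OA at 2-fold, beside 16.5% and 12.0%. With no scaling, 15 were lower under CAN (median -0.27), beside 39.0% of all genes, and 3 under OA (median 0.29), beside 20.8%. Without scaling 17 were higher and 1 lower under OA than under CAN, beside 46.1% and 12.3%. That setting moved the median of all genes to -0.31 under CAN and 0.29 under OA. Scaling to the median gave 9 lower under OA with a median of -0.089 (all genes -0.10), quantile normalization a median of -0.083 and the deposited table -0.11, so the sign of the OA median depended on the scaling. Without a filter 13 of 54 were lower under CAN (median -0.28), beside 34.2% of all genes (median -0.24). In that setting 8 were lower under OA, beside 25.8%, and 16 higher under OA than under CAN, beside 36.45%. With signal above background on all 3 arrays the CAN median was -0.30, beside -0.17 for all genes. The normexp correction left 2 of 39 lower under OA than under CAN, beside 18.0% of all genes. Of the 18 keratins called under CAN, 13 were called in every alternative at 1.5-fold that gave a value. The same held for 13 of 16 under OA and 8 of 12 between the agents, and every called keratin kept its direction in these. For genes with 1 probe above background on every array, changes of filter, dim signals or probe summary cannot alter a call. For such genes these counts rest on the other alternatives. The cause of the other changes was not tested. The lowest signals limit the dim keratins, and no paired analysis was possible because each group had 1 array.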
